A study of Mus musculus with 4 samples.

Results

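The extracellular matrix genes described here encode fibronectin (Fn1), the matricellular proteins Sparc, Spp1, Thbs1, Thbs2, Tnc and Postn, and the microfibril and elastic fibre proteins Fbn1, Eln and Fbln2. They were chosen by symbol, as 10 names looked up among the 16051 genes of the deposited expression table, and 9 of them were listed there. The names were chosen with earlier results of these data known. Eln, which encodes elastin, was not among the listed genes and was not analysed here. The cells were 3T3-L1, a mouse line of NIH SWISS origin whose fibroblast-like preadipocytes are used to model fat cell formation, and all of them had been taken through a differentiation protocol with isobutyl-methylxanthine, dexamethasone and insulin. They were then treated for 48 h with 100 μM risperidone, an antipsychotic, or with its solvent DMSO, which the sample labels call untreated, and each treatment was sequenced as 2 libraries that each pooled the RNA of 3 cultures. Standard deviations and p-values therefore measure the spread between pools and not between single cultures. The labels also name embryonic tissue and a retinal extraction, but the listed retina markers summed to between 1.68 and 2.26 TPM (a level scaled to transcript length and to the sum over all transcripts) in a library.

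Fibronectin and fibrillin-1 form the fibrils on which other matrix proteins are laid down, and elastic fibres grow on a scaffold of fibrillin microfibrils to which fibulins bind. Matricellular proteins such as SPARC, osteopontin (the product of Spp1), thrombospondins, tenascin-C and periostin are secreted into the same matrix but act mainly as signals, by binding integrins, growth factors and proteases, rather than as load-bearing fibres. During fat cell formation the fibronectin-rich matrix of preadipocytes is known to be remodelled, and SPARC and fibronectin are known to restrain that process.

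The libraries held between 15883712 and 16374119 estimated read counts. Of 11 adipocyte markers, Lpl, Fabp4 and Plin4 had the highest levels, and the summed level of the 11 was 873 and 976 TPM in the DMSO libraries and 525 and 577 TPM in the risperidone libraries. Adipoq, Plin1, Cidec, Cebpa, Retn, Lep and Cfd, singled out after their values were seen, lay at or below 1.05 TPM in every library, while Pparg, the remaining marker, which encodes a regulator of fat cell formation, lay between 23.4 and 25.9 TPM. The 9 preadipocyte and fibroblast markers summed to 2495 and 2428 TPM with DMSO and 2806 and 2855 TPM with risperidone, with Vim, Col1a1 and Col3a1 the highest. Of the 8 tested, 3 were higher and 2 lower (37.5% and 25%, beside 32.1% and 32.2% of all genes tested). On the log2 scale Col1a1 changed by 0.99, Col3a1 by -0.96 and Vim, which was not called, by 0.05. Risperidone replicate 2 stood apart, since 15 kidney epithelium markers summed to 374 TPM there and to between 3.89 and 5.49 TPM in the other libraries, and Kap, a kidney transcript, had 1048 counts there against 16 or fewer elsewhere. Among markers of other cells, 7 listed macrophage markers summed to 32.2, 37.5, 30.6 and 32.5 TPM in DMSO replicates 1 and 2 and risperidone replicates 1 and 2. The 2 tested were called in opposite directions, Cd68 at 1.19 and Cd14 at -0.35 on the log2 scale. Endothelium markers summed to 0.37, 0.4, 0.3 and 1.87 TPM in the same order, highest in risperidone replicate 2. Smooth muscle markers summed to 246, 231, 437 and 456 TPM, higher with risperidone, where Acta2 made up most of the sum. Both tested smooth muscle markers were higher, Acta2 by 1.19 and Smtn by 0.49 on the log2 scale, and the defining markers Myh11 and Cnn1, named after their values were seen, were at or below 0.3 TPM. The part of these markers in the results was not tested. The kidney also makes osteopontin and fibronectin, so results for the members are given with and without that library where its presence moved them.

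**Figure D1:**
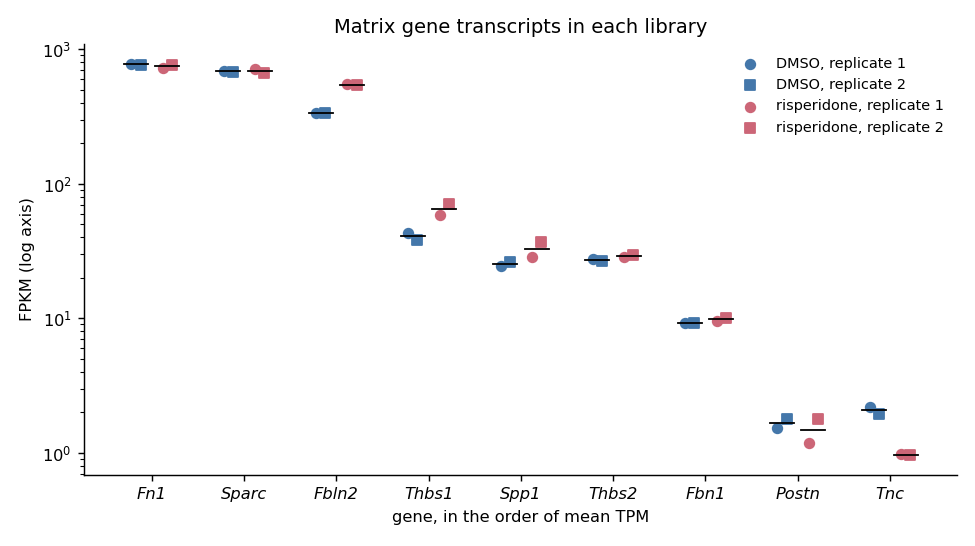
FPKM of the 9 listed matrix genes (log axis) in each library, ordered by mean TPM, with circles for replicate 1, squares for replicate 2, blue for DMSO, red for risperidone and a black line for the mean of each treatment. Fn1 and Sparc lie between 663 and 784 FPKM, Fbln2, Thbs1 and Spp1 sit higher with risperidone, and Tnc sits lower.

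Ordered by mean TPM over the 4 libraries, the genes ran from Fn1 (1497 TPM) and Sparc (1350 TPM) through Fbln2 (856 TPM), Thbs1 (103 TPM), Spp1 (56.7 TPM), Thbs2 (55.3 TPM) and Fbn1 (18.7 TPM) to Postn (3.10 TPM) and Tnc (3.04 TPM). Fn1, Sparc and Fbln2 ranked 108, 116 and 166 among all genes with a count, at or above the 99.0 percentile mark. With DMSO the order of neighbours turned in 2 places, as both Thbs2 values lay above both Spp1 values and both Tnc values above both Postn values. With risperidone Spp1 and Thbs2 overlapped, and both Tnc values lay below both Postn values. The other neighbours in this order were apart in both treatments, although Fn1 and Sparc came close in risperidone replicate 1, at 1332 and 1309 TPM. Together the 9 genes held between 0.386% and 0.404% of all TPM, which overlapped between treatments. Their share of all counts did not overlap, at 1.0% and 0.981% with DMSO and 1.07% and 1.09% with risperidone. The largest gain in counts was that of Fbln2, from 23332 and 22832 with DMSO to 38086 and 36678 with risperidone. Thbs1, Spp1, Thbs2 and Fbn1 also gained, from far fewer counts, Tnc lost counts, and Fn1, Sparc and Postn overlapped. The higher share is therefore not a rise common to the 9 genes, and how often other sets of genes differ in this way was not tested.

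Single genes among the 9 rose or fell with risperidone. In edgeR's quasi-likelihood test on the counts, two-sided with Benjamini-Hochberg adjustment over 10243 genes and a threshold of 0.05, 5 of the 9 genes were higher with risperidone (Fbln2, Thbs1, Spp1, Thbs2 and Fbn1), 1 was lower (Tnc), and 3 did not pass (Fn1, Sparc and Postn). Among all genes tested, 32.1% were higher and 32.2% were lower; the members' shares were 55.6% higher and 11.1% lower, with most genes of the background also called. Their median log2 fold change was 0.18, against 0.00 for all genes tested. A fit that leaves out 1 library keeps 1 library in that treatment, so its spread between replicates comes from the other treatment alone. The count of 5 higher was 3 without DMSO replicate 2 and 6 without risperidone replicate 2, with 1 lower in both, and with limma on log2(TPM + 1) 2 genes were higher and 3 lower, beside 15% and 51.7% of all genes tested in that fit. In FPKM (fragments scaled to transcript length and library size), the same 5 genes had both risperidone libraries above both DMSO libraries and Tnc had both below, patterns that 32.4% and 49.8% of all genes tested showed. In TPM, Fbln2 and Thbs1 alone of the 9 had both risperidone libraries above both DMSO libraries (21.9% of all genes tested), Fn1, Sparc and Tnc had both below (63%), and Spp1, Thbs2, Fbn1 and Postn overlapped. As these are bulk samples, fewer cells of a kind and less RNA per cell cannot be told apart.

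**Figure D2:**
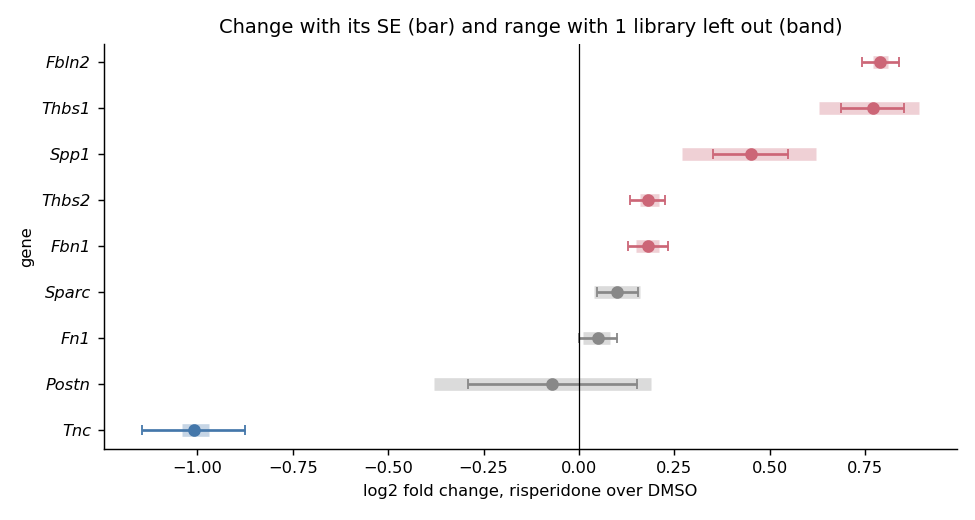
Log2 fold change of each gene, risperidone over DMSO (points), with its standard error (bars) and the range when any 1 library was left out (pale bands); red marks genes called higher, blue lower and grey neither. Fbln2 and Thbs1 lie at 0.79 and 0.77, Tnc at -1.01, and Fn1, Sparc and Postn near 0.

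RefSeq windows upstream of a transcript start were at hand for 7 of the 10 genes, and not for Fn1, Thbs1 and Eln. Windows free of annotated exons are shown for 3 genes that passed the test, namely Spp1 and Thbs2, which were higher, and Tnc, which was lower, so that genes called in opposite directions can be set side by side. Each is the 250 bases before the start on the gene's strand in build GRCm38.p6, at chr5:104434861-104435110 for Spp1, chr17:14694263-14694512 for Thbs2 and chr4:64047016-64047265 for Tnc, with capitals for matches to a TATA box, a CCAAT box or a GC box on either strand.
Spp1: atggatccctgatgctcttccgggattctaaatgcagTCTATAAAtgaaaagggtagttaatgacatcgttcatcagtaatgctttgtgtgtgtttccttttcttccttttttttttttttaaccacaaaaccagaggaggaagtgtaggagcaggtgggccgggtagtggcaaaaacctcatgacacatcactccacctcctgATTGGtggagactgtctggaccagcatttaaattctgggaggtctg
Thbs2: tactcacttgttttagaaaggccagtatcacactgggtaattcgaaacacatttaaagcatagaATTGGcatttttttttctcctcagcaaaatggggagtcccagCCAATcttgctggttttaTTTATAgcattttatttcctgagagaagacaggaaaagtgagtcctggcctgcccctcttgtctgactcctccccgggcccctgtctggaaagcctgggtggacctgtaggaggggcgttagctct
Tnc: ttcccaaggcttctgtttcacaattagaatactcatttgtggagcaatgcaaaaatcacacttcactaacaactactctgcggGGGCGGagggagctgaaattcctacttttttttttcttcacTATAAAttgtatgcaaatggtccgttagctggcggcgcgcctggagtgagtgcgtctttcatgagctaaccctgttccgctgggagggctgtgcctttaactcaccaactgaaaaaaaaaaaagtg
The TATA box, searched as TATANA, was found in all 3 windows and in 23.4% of 27025 windows, 1 per gene, across the genome. Its matches began 213 (opposite strand) and 211 bases before the start in Spp1, 126 (opposite strand) in Thbs2 and 126 in Tnc. The CCAAT box was found by those letters in Spp1, beginning 46 bases before the start, and in Thbs2, beginning 144 and 186 bases before it, and in 34.5% of all windows. The GC box, searched as GGGCGG, was found in Tnc, 167 bases before the start, and in 32.9% of all windows. Matches to TGANTCA (an AP-1 site, in 6.87% of all windows) and GGAATG (a TEAD site, in 12.6%) were not in these 3 windows or in the windows of the other members. These matches describe the letters of the windows and nothing about binding.

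Fibulin-2, a secreted glycoprotein that links fibronectin, fibrillin and elastin, was called higher in 16 of 16 alternative fits at an adjusted p under 0.05. Fbln2 (NCBI Gene 14115, GRCm38.p6 chromosome 6, 91212460 to 91272540, plus strand) had 336 and 338 FPKM in DMSO replicates 1 and 2 and 550.5 and 539 FPKM in risperidone replicates 1 and 2. These values rest on 23332 and 22832 counts with DMSO and 38086 and 36678 counts with risperidone. The difference between treatments was far larger than that between replicates, and the treatments did not overlap. Its log2 fold change was 0.79 (standard error 0.0477, adjusted p = 2.29e-07), which is a 1.73-fold rise in TMM-scaled counts, and the mean FPKM was 337 ± 1.5 with DMSO and 545 ± 8.08 with risperidone (SD, n = 2). With any 1 library left out the log2 fold change lay between 0.77 and 0.81, the fit without risperidone replicate 2 included. Its level relative to fibronectin, which does not depend on how libraries are scaled, was 0.429 and 0.444 with DMSO and 0.757 and 0.699 with risperidone. Fbln2 made up 17.5% and 18.0% of the summed TPM of the 9 genes in the DMSO libraries and 26.0% and 25.4% in the risperidone libraries.

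Thbs1 and Thbs2, which encode secreted thrombospondins that bind CD47, CD36 and integrins, were called higher. A relative outside the 10 genes, Thbs3, named after its values were seen, did not pass the test (log2 fold change 0.10, adjusted p = 0.219). Thbs1, whose product can release active TGF-beta from its latent complex, had 43.4 and 38.3 FPKM with DMSO and 59.1 and 71.1 FPKM with risperidone. All risperidone values lay above all DMSO values, but replicates of both treatments spread more, in proportion to their level, than for Fbln2. The log2 fold change of Thbs1 (NCBI Gene 21825, chromosome 2, 118111876 to 118127133, plus strand) was 0.77 (standard error 0.0822, adjusted p = 1.34e-05). It was 0.63 without risperidone replicate 2 and 0.89 without risperidone replicate 1. Thbs2 (NCBI Gene 21826, chromosome 17, 14665500 to 14694262, minus strand) had 27.8 and 26.9 FPKM with DMSO and 28.5 and 29.6 FPKM with risperidone. Its libraries did not overlap, yet the gap between treatments was about as wide as that between replicates. The log2 fold change of Thbs2 was 0.18 (adjusted p = 0.00539, standard error 0.0465), and its sign turned with limma on log2(TPM + 1), to -0.06. Without DMSO replicate 2, which leaves 1 DMSO library, the call was lost, while the log2 fold change was 0.16. The ratio of Thbs1 to Thbs2 in TPM was 1.56 and 1.42 with DMSO and 2.07 and 2.41 with risperidone, which do not overlap.

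Osteopontin, an acidic phosphoprotein that cells bind through integrins and CD44, rose less evenly. Spp1 (NCBI Gene 20750, chromosome 5, 104435111 to 104441053, plus strand) had 24.7 and 26.3 FPKM with DMSO, 28.4 FPKM in risperidone replicate 1 and 36.7 FPKM in risperidone replicate 2. The highest value was that of risperidone replicate 2, the library with kidney transcripts, and in FPKM the other risperidone library also lay above both DMSO libraries. In TPM that other library, at 51.9, lay between the DMSO libraries, at 51.1 and 54.0. The log2 fold change of Spp1 was 0.45 (adjusted p = 0.00203, standard error 0.0988). Without risperidone replicate 2 it was 0.27, and without risperidone replicate 1 it was 0.62. Of the 15 kidney markers, 4 were at 0 counts in risperidone replicate 1 and none was in risperidone replicate 2, and their part in the value of Spp1 in the latter was not tested. Spp1 was not called with limma on log2(TPM + 1), where its log2 fold change was 0.19.

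Tenascin-C, a large matricellular protein of remodelling tissue that weakens adhesion to fibronectin, was the 1 gene of the 9 called lower in the edgeR test, and with limma on log2(TPM + 1) Fn1 and Sparc were called lower too. Tnc (NCBI Gene 21923, chromosome 4, 63959785 to 64047015, minus strand) had 2.21 and 1.94 FPKM with DMSO and 0.98 and 0.96 FPKM with risperidone, from 232 and 215 counts and 106 and 102 counts. Replicates were close, and both risperidone libraries lay well below both DMSO libraries. The log2 fold change of Tnc was -1.01 (adjusted p = 6.45e-05, standard error 0.134) and lay between -1.04 and -0.97 with any 1 library left out. Its level was low, with a mean of 0.97 FPKM with risperidone, so it passed the filter through the DMSO libraries, and with no filter its log2 fold change was -1.01 (adjusted p = 0.00134).

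Periostin, a matricellular protein that binds collagen and integrins, was as scarce but gave no call. Postn (NCBI Gene 50706, chromosome 3, 54359267 to 54391041, plus strand) had 1.54 and 1.79 FPKM with DMSO and 1.18 and 1.79 FPKM with risperidone, from between 58 and 86 counts. The treatments overlapped, and the log2 fold change was -0.07 (adjusted p = 0.804, standard error 0.222). It was 0.19 without risperidone replicate 1 and -0.38 without risperidone replicate 2, so its direction turned with the library left out.

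Fibronectin, the fibril-forming glycoprotein that cells bind through integrins, and SPARC did not pass the test. Fn1 (NCBI Gene 14268, chromosome 1, 71585473 to 71653280, minus strand) had 784 and 763 FPKM with DMSO and 727 and 771 FPKM with risperidone. One risperidone library lay below both DMSO libraries and the other between them, and the log2 fold change was 0.05 (standard error 0.0489, adjusted p = 0.392). Its sign and call depended on the scaling, since it was -0.19 (adjusted p = 0.0145) with limma on log2(TPM + 1) and 0.16 (adjusted p = 0.000881) with edgeR offsets for gene length and GC content. Without risperidone replicate 1 it was 0.08, and without risperidone replicate 2 it was 0.01. Sparc, which encodes a collagen-binding counter-adhesive protein (NCBI Gene 20692, chromosome 11, 55394159 to 55420080, minus strand), had 696 and 677 FPKM with DMSO and 715 and 663 FPKM with risperidone. The risperidone libraries lay on either side of the DMSO libraries, and the log2 fold change was 0.10 (adjusted p = 0.120, standard error 0.0540). It was 0.16 without risperidone replicate 2 and -0.14 with limma on log2(TPM + 1) (adjusted p = 0.0290).

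Fibrillin-1, the main protein of microfibrils, was called higher by a small margin. Fbn1 (NCBI Gene 14118, chromosome 2, 125300594 to 125506485, minus strand) had 9.27 and 9.25 FPKM with DMSO and 9.57 and 10.1 FPKM with risperidone. Its DMSO replicates were nearly equal, and both risperidone libraries lay slightly above them. The log2 fold change of Fbn1 was 0.18 (adjusted p = 0.0113, standard error 0.0526). Leaving out DMSO replicate 1 or DMSO replicate 2, which leaves 1 DMSO library, ended the call, while the log2 fold change stayed at 0.18. With limma on log2(TPM + 1) the log2 fold change was -0.05.

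**Figure D3:**
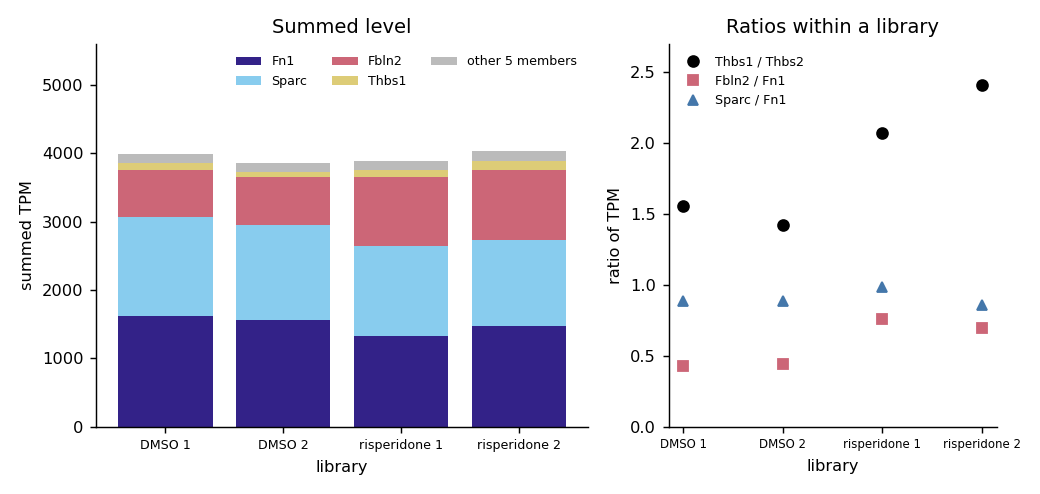
Left, TPM of the 9 genes stacked in each library, with Fn1, Sparc, Fbln2 and Thbs1 in colour and the other 5 in grey; right, ratios of TPM within each library for Thbs1 over Thbs2 (circles), Fbln2 over Fn1 (squares) and Sparc over Fn1 (triangles). The stacks reach between 3864 and 4040 TPM in all libraries, while both risperidone libraries lie above both DMSO libraries for the first and the second ratio.

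By share of their summed TPM, Fn1 made up 40.7% and 40.5% of the 9 genes with DMSO and 34.3% and 36.3% with risperidone, and Sparc 36.1% and 36.0% against 33.7% and 31.2%. The sums themselves, 3987 and 3864 TPM with DMSO and 3883 and 4040 TPM with risperidone, overlapped. The ratio of Sparc to Fn1 was 0.888 and 0.887 with DMSO and 0.983 and 0.860 with risperidone, so the risperidone libraries lay on either side of the DMSO libraries.

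The direction of change varied with transcript length over all genes. The median log2 fold change was 0.11 in the shortest of 4 length classes of equal size and -0.11 in the longest, and 6 of the 9 members fell in the longest class. Offsets that remove trends with length and GC content left Fbln2 (0.82), Thbs1 (0.87), Spp1 (0.39) and Tnc (-0.91) on the same side of the threshold and raised the log2 fold changes of Thbs2 to 0.29 and Fbn1 to 0.33. Scaling to TPM lowered the median of all genes tested to -0.22, and relative to that median none of the 9 genes but Tnc and Postn was lower. By the annotation, single genes overlap Fn1, Thbs1, Tnc and Fbn1 on the opposite strand and Spp1 on the same strand, none of them in the expression table. Whether reads were counted by strand is not given in the sources used here.

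**Figure D4:**
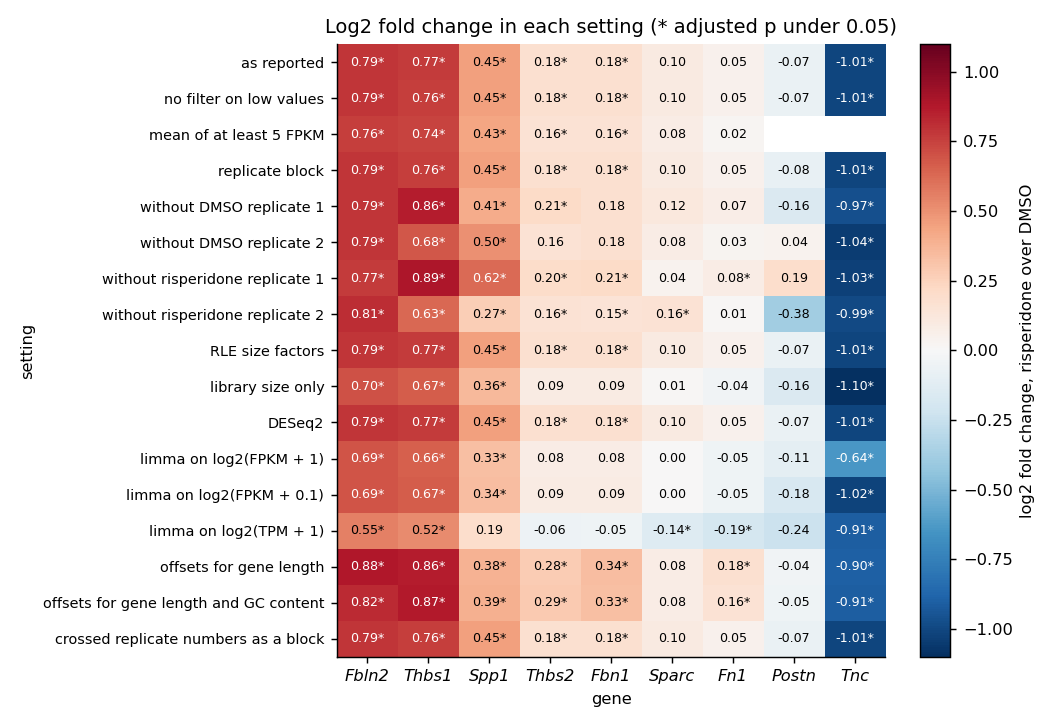
Log2 fold change of each gene, risperidone over DMSO (columns, colour scale from blue for lower to red for higher), under each setting (rows), with an asterisk for an adjusted p under 0.05 and blank cells where a stricter filter removed the gene. Fbln2 stays between 0.55 and 0.88 and Thbs1 between 0.52 and 0.89, whereas Thbs2 and Fbn1 turn slightly negative with limma on log2(TPM + 1).

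The relatives of these genes were compared through lists written from general knowledge, but with earlier results of these data known. The shares called in each list are therefore description only. Of 24 further matricellular genes, 10 had a mean of at least 1 FPKM, of which 3 were higher and 3 lower (30% each, beside 32.1% and 32.2% of all genes tested), with a median log2 fold change of 0.15. The largest change was that of Cyr61, which encodes the integrin-binding protein CCN1, with 17.7 and 17.5 FPKM with DMSO and 77.2 and 70.2 FPKM with risperidone (log2 fold change 2.16, adjusted p = 5.12e-09). Ctgf, which encodes CCN2, rose from 0.59 and 0.53 to 1.79 and 1.90 FPKM (1.81), and Spock2, a proteoglycan related to SPARC, from 0.80 and 0.87 to 1.35 and 1.43 FPKM (0.84). Tgfbi, which like periostin carries fasciclin domains, fell from 3.10 and 2.97 to 1.11 and 1.40 FPKM (-1.18). Ctgf and Spock2 had means under 1 FPKM with DMSO and passed the filter through the risperidone libraries, and a stricter filter at 5 FPKM left 1 gene of the list higher and 1 lower.

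Of 21 elastic fibre and microfibril genes, 11 were tested, of which 4 were higher (36.4%) and 5 lower (45.5%), beside 32.1% and 32.2% of all genes tested, with a median of -0.13. Fbln1, a close relative of Fbln2, rose from 2.49 and 2.76 to 6.66 and 6.15 FPKM (log2 fold change 1.38, adjusted p = 6.42e-06), whereas Fbln7 fell from 5.92 and 6.15 to 2.52 and 3.04 FPKM (-1.0). Ltbp2, a latent TGF-beta binding protein family member of microfibrils, fell (-0.81) and Loxl3, a cross-linking oxidase, rose (0.66). Lox, named after its values were seen because it encodes the main cross-linker of elastin and collagen, was the most abundant gene of this list, at 888 and 884 FPKM with DMSO and 1100 and 1128 FPKM with risperidone (0.42).

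Of 18 receptor genes for these proteins, 12 were tested, of which 6 were higher (50%) and 2 lower (16.7%), beside the same 32.1% and 32.2%, with a median of 0.22. With limma on log2(TPM + 1), 5 were higher and 4 lower, beside 15% and 51.7% of all genes tested. Itga5, the alpha subunit of the classical fibronectin receptor, rose from 70.7 and 67.2 to 119.9 and 120.9 FPKM (log2 fold change 0.90, adjusted p = 1.26e-07). Its partner Itgb1, also named after its values were seen, had 540.2 and 522 FPKM with DMSO and 555 and 563 FPKM with risperidone (0.17, adjusted p = 0.00951), the call was kept in 2 of the 4 fits that left out 1 library, and with limma on log2(TPM + 1) its log2 fold change was -0.07. Itgb5, a subunit that pairs with alpha v, rose by 0.52, less than Itga5. The cell surface proteoglycans of the syndecan family went both ways, with Sdc3 (1.04) and Sdc1 (0.60) higher and Sdc2 (-0.45) and Sdc4 (-0.41), named after their values were seen, lower.

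Of 19 genes of cross-linking and proteolysis, 14 were tested, of which 8 were higher (57.1%) and 5 lower (35.7%), again beside 32.1% and 32.2%, with a median of 0.22. With limma on log2(TPM + 1), 4 were higher and 5 lower, beside 15% and 51.7% of all genes tested. Htra1, a secreted protease that can cleave fibronectin, had 0.67 and 0.40 FPKM with DMSO and 1.90 and 1.64 FPKM with risperidone (log2 fold change 1.81, adjusted p = 0.000334). Tgm2, a transglutaminase that cross-links fibronectin, rose (0.89), and Adamtsl4, which encodes a fibrillin-binding protein, fell from 1.70 and 1.70 to 0.58 and 0.64 FPKM (-1.46). Htra1 and Adamtsl4 passed the filter through the treatment in which they were higher.

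Of 26 TGF-beta, SRF and YAP pathway genes, 24 were tested, of which 15 were higher (62.5%) and 3 lower (12.5%), with a median of 0.23. The shares over all genes tested were 32.1% and 32.2%. With limma on log2(TPM + 1), 7 were higher and 6 lower, where 15% of all genes tested were higher and 51.7% lower. Amotl2, a YAP target that also restrains YAP, rose from 25.5 and 24.9 to 102 and 85.1 FPKM (log2 fold change 1.99, adjusted p = 2.09e-08). Tgfb2, a TGF-beta ligand, rose from 1.12 and 1.18 to 3.69 and 3.75 FPKM (1.78), Ankrd1, a YAP target that passed the filter through the risperidone libraries, from 0.75 and 0.58 to 2.0 and 1.64 FPKM (1.54), and Acta2, smooth muscle actin, from 111 and 104 to 229 and 229 FPKM (1.19). With no filter on low values, the genes named here that passed it through 1 treatment kept their calls, with adjusted p = 0.00208 for Ctgf, 0.00619 for Spock2, 0.009 for Htra1, 0.00198 for Adamtsl4 and 0.0094 for Ankrd1. Without DMSO replicate 1, the lower genes fell in number from 3 to 1 among matricellular relatives, from 5 to 3 in cross-linking and proteolysis and from 3 to 1 among TGF-beta, SRF and YAP genes. Without risperidone replicate 2, the counts in the 5 lists were 3 higher and 4 lower, 4 and 6, 6 and 2, 7 and 4, and 15 and 4. No list was tested as a set, and with limma on log2(TPM + 1) the medians of the 5 lists were -0.11, -0.34, -0.03, -0.03 and -0.03 in the order given here, against -0.22 for all genes tested.

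**Figure D5:**
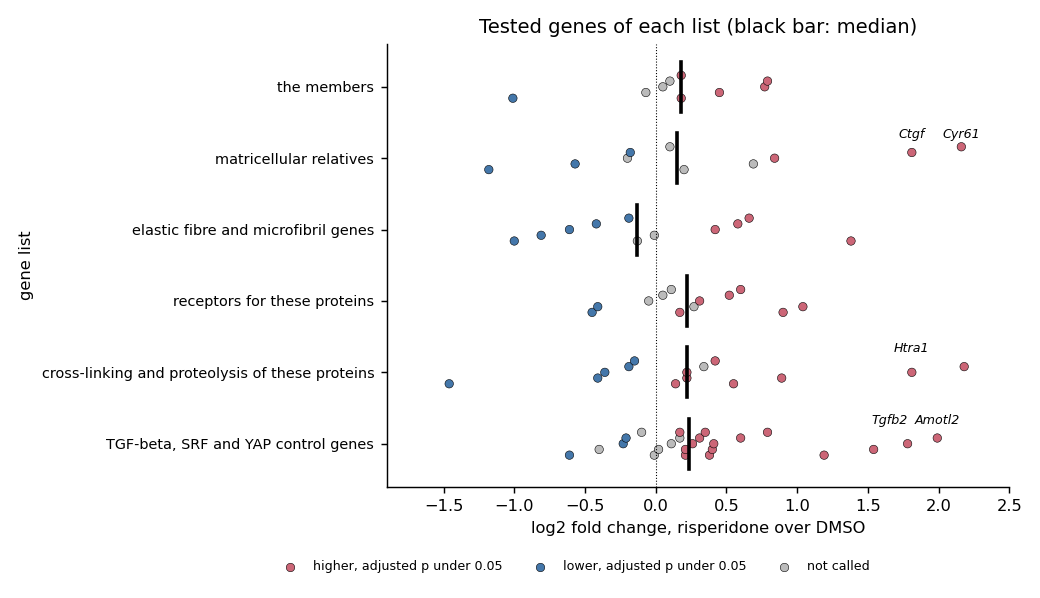
Log2 fold change, risperidone over DMSO, of every tested gene of the members and of the 5 gene lists (rows), in red for genes called higher, blue for lower and grey for neither, with a black bar for each median. The medians lie between -0.13 and 0.23, and Cyr61 and Amotl2 lie at 2.16 and 1.99.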

How the data were processed

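RNA from 3T3-L1 cells was sequenced in 4 libraries, 2 per treatment, each a pool of 3 cultures. The deposited table gives, per gene and library, estimated counts from RSEM, FPKM and TPM that the authors derived from them. The submitters' processing notes name Bowtie2, RSEM, DESeq2 and GRCm38.p6, with versions and settings not given in the sources used here. The table's 6 columns of averages were not used. Members and gene lists were chosen with earlier results of these data known.

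Counts were rounded and tested with edgeR 4.0.16 (quasi-likelihood, TMM, treatment as the only term, R 4.3.3) over 10243 genes whose mean reached 1 FPKM, two-sided, with an adjusted p below 0.05 called. TMM factors were 1.03, 1.03, 0.963 and 0.973, and the biological coefficient of variation was 0.0468. A standard error is the log2 fold change over the root of F. Libraries held between 15883712 and 16374119 counts. Alternatives used DESeq2 1.42.0, limma 3.58.1, other scalings, filters and offsets, a replicate block and leaving out each library. Leaving out 1 library keeps 1 library in that treatment, so calls kept or gained in such a fit are not added replication. GC content came from GENCODE transcripts for 15622 of 16051 genes, and promoter windows from RefSeq. Named were all members, in each list up to 4 called genes with the largest absolute change, up to 3 markers of a cell type with the highest TPM, and Kap, except where the text says that a gene was chosen after its values were seen, and 1 gene is not reported here by name.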

Additional observations from a re-analysis of the deposited data

How the results depend on the processing

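The calls of Fbln2 and Thbs1 (16 of 16 alternatives each) and of Tnc (15 of 15) were kept in every fit that held the gene, with the adjusted p alone as the threshold, and Spp1 kept its call in 15 of 16, Thbs2 in 11 and Fbn1 in 10. The number of members higher was 5 as reported, 3 with library size only, 3 with limma on log2(FPKM + 1) or on log2(FPKM + 0.1), 2 with limma on log2(TPM + 1), 0 where the log2 fold change also had to reach 1 in size, and 3 to 6 with any 1 library left out, the lowest without DMSO replicate 2. The number lower was 1 as reported, 0 with a mean of at least 5 FPKM, which removes Tnc and Postn, 3 with limma on log2(TPM + 1), and 1 to 1 with any 1 library left out. Fn1 turned to -0.04 with library size only, to -0.05 with limma on log2(FPKM + 1) or log2(FPKM + 0.1) and to -0.19 on log2(TPM + 1). On the last scale Sparc was -0.14, Thbs2 -0.06 and Fbn1 -0.05. Postn turned to 0.04 without DMSO replicate 2 and to 0.19 without risperidone replicate 1, and was -0.38 without risperidone replicate 2. The scalings that turned signs also lower the median of all genes, to -0.09 with library size only and -0.22 on log2(TPM + 1); the cause was not tested. Over all genes, 3287 higher and 3303 lower became 2639 and 2653 with DESeq2, 2500 and 4092 with library size only, 2420 and 3975 with limma on log2(FPKM + 1), 2423 and 3971 on log2(FPKM + 0.1) and 1536 and 5292 on log2(TPM + 1).

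The replicate differences of both treatments had a correlation of r = -0.122 across 10184 genes. This cannot show whether replicate numbers pair the libraries, as the risperidone difference includes the kidney transcripts of replicate 2. With a replicate block 5 members were higher and 1 lower, and 3292 and 3321 of all genes, and with crossed numbers, an alternative chosen after seeing the data, 5 and 1, and 3474 and 3519. Counts of the 5 gene lists moved by more than 1.5 times in 12 of 160 comparisons. Depth was lowest for Postn, with 58 to 86 counts, whose direction turned with the library left out.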
